A study of Homo sapiens with 10 samples.

Results

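The comparison described here set RD cells transfected with a second siRNA against NRAS, called siRNA 2, against RD cells transfected with a nonspecific siRNA. It took in 4 of the 10 sequenced libraries, 2 per group, and all 23228 gene rows of the deposited count table. RD is an established human rhabdomyosarcoma line, a muscle-lineage tumour line of the embryonal type, and it is known to carry an activating NRAS mutation. The labels name it for every group, so the results are those of 1 line. Both siRNAs were used at 10 nM with a lipid reagent and the cells were collected at 48 h. The nonspecific siRNA is called scrambled in another of the labels. A further siRNA against the same gene, siRNA 1, was used at the same dose and time in 2 libraries and is set beside siRNA 2 where values allow. The other 4 libraries, an ERK inhibitor (SCH772984, 300 nM) and DMSO, both collected at 24 h, entered the fit for its estimate of spread.

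NRAS is a small GTPase that, when bound to GTP, recruits RAF kinases, which activate MEK and then ERK. ERK phosphorylates transcription factors that switch on immediate-early genes, and it also switches on its own inhibitors, among them the DUSP phosphatases and the Sprouty proteins. RAS genes are recurrently mutated in embryonal rhabdomyosarcoma, in which RAS signalling is known to hold back muscle differentiation. An siRNA guides the RNA interference machinery to matching transcripts and can also lower partly matching ones, which is why studies of this kind use more than 1 siRNA per gene.

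The 4 libraries held between 24116821 and 30768970 reads counted to genes, and all 10 held between 23224063 and 30768970. A count of 0 would allow up to 3 reads, which is 0.0951 to 0.124 CPM, a read count divided by its library's size after TMM scaling, in these 4 libraries. This limit covers counting error only. Whether replicates were grown as separate cultures is not in the labels. Every p-value here therefore rests on how far libraries of the same group differed, and that spread may be technical. In the main fit it was estimated over all 5 groups, and not from the compared groups alone. Markers of the cell type were partly absent. The muscle filament gene DES had 928 and 722 counts with siRNA 2, against 714 and 537 counts with nonspecific siRNA, and the myogenic factor PAX3 had 369 and 363 counts, against 258 and 283 counts. MYOD1, MYOG and PAX7, which usually define cells of this lineage, had at most 4 counts in any of the 4 libraries, and MYF5 was at 0 in all of them. In all 10 libraries PAX7 had at most 6 counts, MYOD1 at most 5 and MYOG at most 3, so the counts of these factors go against a muscle-lineage label, and whether the cells are the named line was not tested. Markers of other cell types were not at 0 as a class. Endothelial and blood markers summed to 171.5 and 149.3 CPM with siRNA 2, against 170.4 and 136.5 CPM with nonspecific siRNA, nearly all of it from the receptor gene TEK. Nerve and glial markers summed to 211.3 and 169.9 CPM, against 155.9 and 107.7 CPM, without overlap, epithelial markers to 138.4 and 213.8 CPM, against 192.8 and 217.3 CPM, and fibroblast and fat cell markers to 375 and 310.4 CPM, against 342.8 and 308.2 CPM. The part of other cell types in the results was not tested. None of the 16 epithelial, endothelial, blood, nerve and glial markers tested passed edgeR's test for siRNA 2 against nonspecific siRNA (7 had an unadjusted p below 0.05, and DESeq2 called 2), and of 8 fibroblast and fat cell markers LPL was lower, with 597 and 866 counts, against 1209 and 1510 counts, though not without siRNA 2 replicate 1 (adjusted p of 0.354 in that test), nonspecific replicate 1 (0.103) or nonspecific replicate 2 (0.108).

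The targeted gene was low in both siRNA 2 libraries. NRAS had 51.0 and 48.0 CPM with siRNA 2 and 52.4 and 52.1 CPM with siRNA 1, against 219.6 and 271.7 CPM with nonspecific siRNA. The groups did not overlap, and the mean with siRNA 2 was 20.1% of that with nonspecific siRNA. The log2 fold change was -2.31 (SE 0.12), with a p of 5.15e-05 by edgeR's quasi-likelihood test, adjusted after Benjamini and Hochberg over all genes tested, and it lay between -2.44 and -2.15 when each of the 4 libraries was left out in turn. Between siRNA 2 and siRNA 1 the log2 difference in NRAS was -0.08 (SE 0.12), with an adjusted p of 0.963 in the same test.

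HRAS, a close relative, did not pass the test. It had 38.2 and 48.1 CPM with siRNA 2, against 63.2 and 61.8 CPM with nonspecific siRNA (log2 fold change -0.54, SE 0.15, adjusted p of 0.0562 by edgeR's quasi-likelihood test). It was called lower with no filter on low counts, with DESeq2, with the replicate number as a block and without siRNA 2 replicate 2, and over 11 alternatives its adjusted p ran from 0.0116 to 0.423. Over 22 genes of the cascade from RAS to ERK, all tested, 1 was higher and 3 were lower, and their median log2 fold change was 0.00. Beside NRAS, the lower ones were MAP2K2, which encodes MEK2, and the ERK-activated kinase RPS6KA2. MRAS, a RAS relative that acts with SHOC2 to activate RAF, was the higher one, at 26.4 and 25.0 CPM with siRNA 2, against 17.1 and 18.1 CPM with nonspecific siRNA. None of these 3 calls held without siRNA 2 replicate 1 (adjusted p up to 0.37 in edgeR's test), nonspecific replicate 1 (up to 0.17) or nonspecific replicate 2 (up to 0.13).

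**Figure D1:**
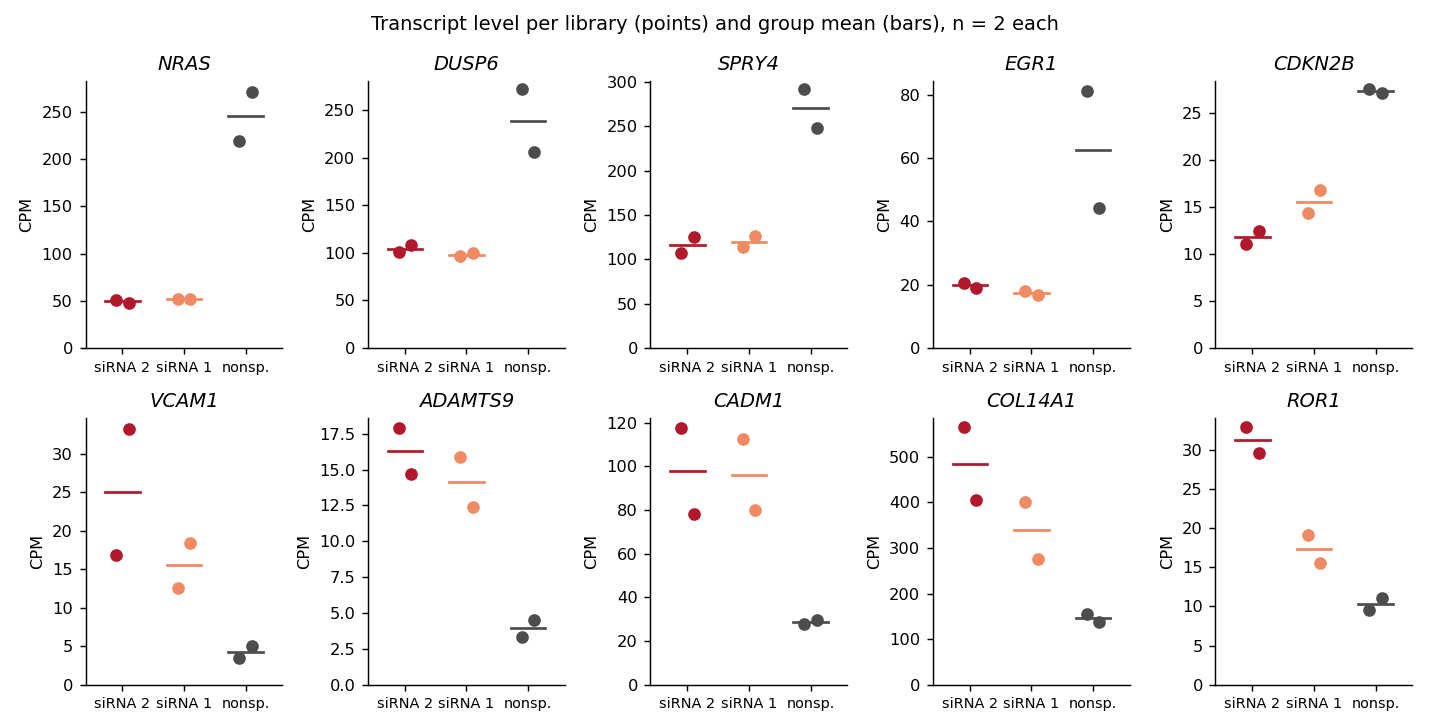
Transcript level in CPM (vertical axis, from 0) of 10 genes, with 1 point per library and a bar at the mean of each group (n = 2), for siRNA 2, siRNA 1 and nonspecific siRNA from left to right. NRAS lay at 51.0 and 48.0 CPM with siRNA 2, against 219.6 and 271.7 CPM with nonspecific siRNA. No siRNA 2 point of these 10 genes lay within the range of the nonspecific ones. The genes shown were chosen among called ones, so this separation is a description and no support.

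Across the 14761 genes that passed a filter on low counts, 949 differed between siRNA 2 and nonspecific siRNA at an adjusted p below 0.05, which is 6.43% of them. Of these, 382 were higher (2.59%) and 567 were lower (3.84%), while 3947 genes had an unadjusted p below 0.05. Most changes were small: the median absolute log2 fold change of the 949 was 0.67, and 126 higher and 84 lower genes differed by at least 2-fold. The median log2 fold change of all genes tested was -0.0023. Counts of list members given below are to be set beside 2.59% higher and 3.84% lower, and no list was tested as a set. The number of calls leaned on single libraries: it was 53 without siRNA 2 replicate 1, 130 without nonspecific replicate 1, 465 without nonspecific replicate 2 and 1144 without siRNA 2 replicate 2. In each of these fits a lone library was assumed to vary like the other groups. In bulk RNA, fewer cells of a kind and less RNA per cell cannot be told apart.

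**Figure D2:**
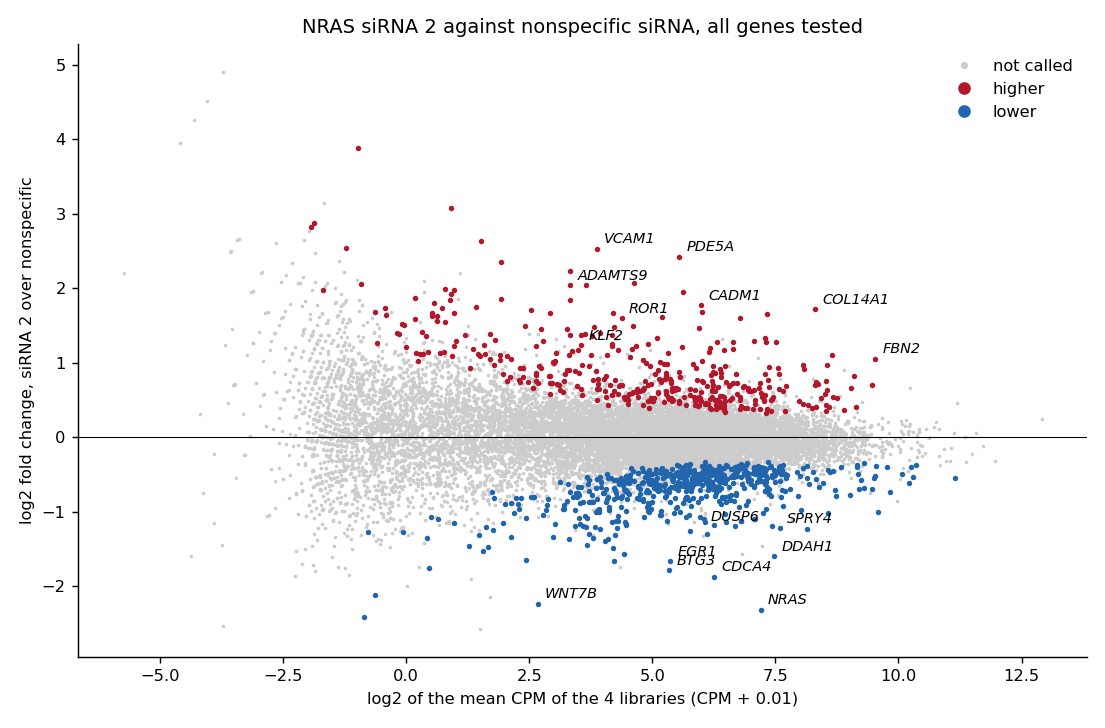
Log2 fold change of siRNA 2 over nonspecific siRNA (vertical axis) against the log2 of the mean CPM of the 4 libraries (horizontal axis), 1 point per gene tested, with the 382 higher genes in red and the 567 lower genes in blue. NRAS stands lowest among the well expressed genes at -2.31, and most called genes lie within 1 log2 unit of 0.

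Some of the genes that ERK induces to restrain itself were lower. Of 16 negative feedback genes, all tested, 6 fell and 1 rose, with a median log2 fold change of -0.69. DUSP6, the phosphatase that removes the activating phosphates from ERK, had 101 and 108 CPM with siRNA 2, against 272 and 206 CPM with nonspecific siRNA (log2 fold change -1.19, SE 0.16, adjusted p of 0.00543 by edgeR's quasi-likelihood test). SPRY4, a Sprouty inhibitor of receptor signalling to RAS, had 107 and 126 CPM, against 292 and 249 CPM (-1.22, SE 0.16). In both genes the siRNA 2 values were tightly placed and far below the control range. ERRFI1, which binds and inhibits the EGF receptor, had 152 and 163 CPM, against 258 and 260 CPM, and SPRY2 had 179 and 172 CPM, against 414 and 275 CPM. The phosphatase gene DUSP4 had 5.80 and 8.47 CPM, against 14.7 and 17.2 CPM, and SPRED3, a relative of the Sprouty genes, had 0.983 and 1.46 CPM, against 2.73 and 2.68 CPM. DUSP5 had 18.5 and 30.7 CPM, against 48.9 and 60.8 CPM, and missed the threshold at an adjusted p of 0.0505 in the same test. The member that rose was DUSP10, a phosphatase that acts mainly on the stress kinases JNK and p38, with 10.6 and 8.90 CPM, against 4.88 and 6.12 CPM. None of the 16 passed without siRNA 2 replicate 1, with the 5 leading genes at adjusted p of 0.06 to 0.193 in edgeR's test and a median log2 fold change of -0.68, and without nonspecific replicate 1 there were 3 lower and 0 higher.

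Some genes through which ERK signalling is read out in growth and at the cell surface were also lower. Of 22 listed, 20 were tested, 7 fell and none rose, with a median log2 fold change of -0.74. The secreted neuropeptide precursor VGF had 7.33 and 12.03 CPM with siRNA 2, against 29.9 and 24.3 CPM with nonspecific siRNA (-1.49, SE 0.22, adjusted p of 0.00748 by edgeR's quasi-likelihood test). The urokinase receptor PLAUR had 56.5 and 83.8 CPM, against 145 and 159 CPM, and its ligand PLAU had 45.3 and 80.7 CPM, against 119 and 167 CPM. The EGF receptor ligand TGFA had 36.8 and 57.1 CPM, against 106 and 105 CPM. In these 4 genes the groups stood apart, while siRNA 2 replicate 1 was below replicate 2. HMGA1, an architectural chromatin protein, had 196 and 305 CPM, against 460 and 553 CPM, and PHLDA1 had 623 and 744 CPM, against 1081 and 1193 CPM. HMGA1 has processed copies in the genome, so its counts are less certain. The ETS factor ETV4 had 117 and 165 CPM, against 284 and 246 CPM. The cyclin gene CCND1, a G1 regulator that ERK induces, had 389 and 642 CPM, against 818 and 906 CPM, a log2 fold change of -0.74 (SE 0.24) that did not pass (adjusted p of 0.0855 in the same test). CCND1 was called lower under the same 4 alternatives as HRAS, and its adjusted p ran from 0.00534 to 0.503 over 11. LIF and FOSL1 had log2 fold changes of -1.57 and -1.32 and did not pass, with siRNA 2 replicate 1 at 23.5 CPM and replicate 2 at 91.8 CPM for LIF. None of the 20 passed without siRNA 2 replicate 1 (adjusted p of 0.0541 to 0.268 for the 5 leading genes in edgeR's test), without nonspecific replicate 1 there was 1, and without nonspecific replicate 2 there were 4.

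Some immediate-early factors, the first genes transcribed when ERK is activated, were lower. Of 25 listed, 24 were tested, 6 fell and 1 rose, with a median log2 fold change of -0.60, and the other 17 did not pass the test. EGR1, a zinc finger factor, had 20.4 and 19.1 CPM with siRNA 2, against 81.1 and 44.2 CPM with nonspecific siRNA (-1.66, SE 0.27, adjusted p of 0.0109 by edgeR's quasi-likelihood test). The nuclear receptor gene NR4A1 had 7.52 and 9.93 CPM, against 20.8 and 19.1 CPM, and its relative NR4A2 had 2.28 and 2.63 CPM, against 7.16 and 5.28 CPM. IER2 had 52.4 and 65.3 CPM, against 132 and 109 CPM. The control libraries differed most for EGR1, while no group overlapped for any of these genes. The AP-1 subunits JUNB and FOS had log2 fold changes of -1.07 and -0.85, and MYC had -0.59 with an adjusted p of 0.13 in the same test. KLF2, a Krüppel-like factor known from endothelial cells and T cells, rose to 14.2 and 19.0 CPM, against 6.37 and 7.62 CPM, and is taken up again with siRNA 1. No member of the 24 fell past the threshold without siRNA 2 replicate 1, and without nonspecific replicate 1 there was 1, with adjusted p of 0.0473 to 0.0683 for the 5 leading genes in edgeR's test.

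Promoters of the fallen genes of these 3 lists were read from RefSeq (GRCh38.p14), where 16 of 19 had an entry (DUSP4, ETV4 and NR4A2 had none), as windows of 250 bases before to 50 bases after the start. EGR1 is printed because it fell furthest of the 16 and holds the known binding element of SRF, the CArG box, which ERK acts on through ternary complex factors. SPRY2 is printed beside it as a promoter with an ETS core and no CArG box. Each runs 5′ to 3′ up to the base before the start.
EGR1, chr5:138465229-138465478 (plus strand), CArG boxes in capitals: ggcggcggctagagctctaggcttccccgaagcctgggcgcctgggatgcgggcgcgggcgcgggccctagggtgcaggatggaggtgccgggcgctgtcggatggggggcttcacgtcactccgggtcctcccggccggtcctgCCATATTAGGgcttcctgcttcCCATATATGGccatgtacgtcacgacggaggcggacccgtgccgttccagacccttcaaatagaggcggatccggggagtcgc
SPRY2, chr13:80341127-80341376 (minus strand), ETS core in capitals: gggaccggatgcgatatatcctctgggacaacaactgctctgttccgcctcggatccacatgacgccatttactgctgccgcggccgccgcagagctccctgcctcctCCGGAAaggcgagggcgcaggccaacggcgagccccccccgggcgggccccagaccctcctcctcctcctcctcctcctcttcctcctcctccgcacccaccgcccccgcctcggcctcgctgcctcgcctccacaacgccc

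The CArG boxes of EGR1 began 105 and 83 bases before its start, and no other of the 16 windows held one. On both strands, 1.29% of 35114 promoter windows of the same length held a CArG box. The ETS core CCGGAA was found in 4 of the 16 (IER2, NR4A1, PHLDA1 and SPRY2), against 17.2% of all windows. The AP-1 site TGANTCA was found in PLAUR and SPRED3, against 7.71% of all windows, and the cyclic AMP element TGACGTCA in VGF alone, against 1.85%. No window of the 16 held more than 1 kind of motif, the boxes of EGR1 lie apart from each other, and so no match overlapped another. A match is a description of letters only, and sites outside the windows were not searched, so a gene without a match here may hold one elsewhere.

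Some receptor tyrosine kinases, which stand above RAS, were higher. Of 25 listed, 22 were tested, 4 rose and none fell, with a median log2 fold change of 0.12. Over all genes tested, 2.59% were higher and 3.84% lower. The direction was not the same in every setting. With DESeq2, and also with no filter on low counts, 5 rose and 2 fell, and with the replicate block 7 rose and 2 fell. ROR1, a receptor for WNT5A, had 32.9 and 29.6 CPM with siRNA 2, against 9.52 and 11.02 CPM with nonspecific siRNA (log2 fold change 1.60, SE 0.16, adjusted p of 0.00135 by edgeR's quasi-likelihood test). MET, the receptor for hepatocyte growth factor, had 26.3 and 26.1 CPM, against 8.56 and 11.6 CPM (1.38, SE 0.19). Both were above the control libraries in each siRNA 2 library and passed without any single library. MET also differed between nonspecific siRNA and DMSO (adjusted p of 0.0485 in the same test), groups that differ in transfection and in time. FGFR3 and the collagen receptor DDR2 rose by 0.71 and 0.55 on the log2 scale, and neither passed without siRNA 2 replicate 1, nonspecific replicate 1 or nonspecific replicate 2 (adjusted p up to 0.36 in edgeR's test). FGFR4, which marks rhabdomyosarcoma, had 10.2 and 14.3 CPM, against 19.6 and 17.9 CPM, with an adjusted p of 0.051 in the same test. Of 22 genes of PI3K, AKT and FOXO signalling, 2 rose and none fell, among them the PI3K subunit PIK3R1, with 96.7 and 82.7 CPM, against 47.7 and 67.9 CPM. PIK3R1 passed neither without siRNA 2 replicate 1 (adjusted p of 0.33 in edgeR's test) nor without nonspecific replicate 1 (0.128).

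Among 14 tested genes of the BCL2 family, which sets the threshold for apoptosis, 2 rose and 2 fell. The higher ones were BH3-only killers: BCL2L11, the BIM gene, whose protein ERK marks for destruction, with 103 and 82.4 CPM with siRNA 2, against 54.9 and 59.0 CPM with nonspecific siRNA, and BMF, with 62.7 and 46.6 CPM, against 25.4 and 24.3 CPM. Their log2 fold changes were 0.71 (SE 0.14) and 1.14 (SE 0.25), with adjusted p of 0.0213 and 0.0281 by edgeR's quasi-likelihood test. PMAIP1, the NOXA gene and also a BH3-only killer, was lower, at 72.3 and 103 CPM, against 147 and 169 CPM, and so was the pore-forming BAK1, at 11.6 and 13.5 CPM, against 17.8 and 18.6 CPM. The family so held movers of both directions, and members of the same class differed in direction. None of the 4 passed without siRNA 2 replicate 1, nonspecific replicate 1 or nonspecific replicate 2, where adjusted p in edgeR's test ran from 0.0544 to 0.357.

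Some genes of DNA replication were lower, by small amounts. Of 40 genes, all tested, 18 fell and none rose, the median log2 fold change was -0.44, and 97.5% of the 40 had a negative value, against 50.3% of all genes tested. CDT1, which loads the replicative helicase, had 15.8 and 26.8 CPM with siRNA 2, against 39.0 and 39.0 CPM with nonspecific siRNA. UHRF1, which carries DNA methylation through replication, had 63.2 and 89.7 CPM, against 129 and 132 CPM (log2 fold change -0.77, SE 0.15, adjusted p of 0.0203 by edgeR's quasi-likelihood test). The helicase subunit MCM7 had 811 and 1057 CPM, against 1413 and 1443 CPM. In all 3 genes the siRNA 2 libraries lay below both controls, with replicate 1 the lower of them. The polymerase gene POLE, the chromatin assembly factor CHAF1A, GINS1 of the helicase and the ligase LIG1 had log2 fold changes of -0.49, -0.59, -0.57 and -0.42. The count of 18 rested on the set of libraries: it was 0 without siRNA 2 replicate 1, 0 without nonspecific replicate 1, 0 without nonspecific replicate 2 and 25 without siRNA 2 replicate 2, while the 5 leading genes had adjusted p of 0.0576 to 0.307 in edgeR's test in the first 3 of these fits. With only the 4 libraries compared in the fit, it was also 0. The count was 27 with DESeq2, 25 with no filter on low counts and 34 with the replicate block. The median log2 fold change of the 40 genes ran from -0.56 to -0.31 over the alternatives.

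Of 35 mitotic genes, all tested, 4 fell and none rose, with a median log2 fold change of -0.17, while 3.84% of all genes tested fell. The 4 were AURKB and INCENP, partners in the chromosomal passenger complex, UBE2C, which serves the anaphase-promoting complex, and the checkpoint gene MAD2L1. AURKB had 75.3 and 83.3 CPM with siRNA 2, against 132 and 109 CPM with nonspecific siRNA (-0.61, SE 0.11, adjusted p of 0.0158 by edgeR's quasi-likelihood test). The proliferation marker MKI67 had 555 and 528 CPM, against 569 and 656 CPM, and did not pass (-0.18, adjusted p of 0.243 in the same test). Of 22 G1 cyclins, kinases and inhibitors, 3 fell and none rose. CDKN2B, which encodes the CDK4 and CDK6 inhibitor p15, had 11.1 and 12.5 CPM, against 27.6 and 27.1 CPM (-1.22, SE 0.14), and it passed without each library in turn. CDK2, the S-phase kinase, had 96.4 and 104 CPM, against 148 and 142 CPM, and the repressor E2F8 had 27.0 and 29.4 CPM, against 39.2 and 39.5 CPM. So the fallen G1 genes held an inhibitor of the cycle as well as a kinase that drives it. Without siRNA 2 replicate 1 or nonspecific replicate 1 no mitotic gene and only CDKN2B of the G1 genes passed, with adjusted p for the others up to 0.348 in edgeR's test.

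Of 20 muscle lineage factors, 13 were tested and 1 rose, the RNA-binding splicing regulator RBM24, with 16.9 and 11.96 CPM with siRNA 2, against 6.29 and 4.86 CPM with nonspecific siRNA (1.38, SE 0.24, adjusted p of 0.0141 by edgeR's quasi-likelihood test). DES had 29.4 and 25.7 CPM, against 29.5 and 20.6 CPM, and MEF2C, a factor of muscle differentiation, had 42.8 and 32.7 CPM, against 32.8 and 29.9 CPM, so that both overlapped. Of 34 sarcomere genes, 20 were tested and 1 rose, the troponin gene TNNC1, at 1.05 and 0.890 CPM, against 0.248 and 0.344 CPM. These are 1 of 13 and 1 of 20, beside 6.43% of all genes tested, and nothing is read from them about muscle genes as a class. RBM24 and TNNC1 passed neither without siRNA 2 replicate 1 (adjusted p of 0.143 and 0.248 in edgeR's test) nor without nonspecific replicate 1 (0.0516 and 0.134) or replicate 2 (0.06 and 0.0722). Of 18 tested smooth muscle and mesenchymal genes, 5 rose and 2 fell, with a median log2 fold change of 0.45. PRRX1, a homeobox factor of limb and fibroblast mesenchyme, had 106 and 90.3 CPM, against 41.0 and 47.5 CPM (1.15, SE 0.15), and passed without each library. The actin-binding LMOD1 had 7.58 and 4.34 CPM, against 2.23 and 1.07 CPM, and the transition factors SNAI2 and ZEB2 rose by 0.67 and 0.69 on the log2 scale. SNAI1, a factor of the same class as SNAI2, was lower (-0.57), as was SPP1, which encodes osteopontin (-0.71). Without siRNA 2 replicate 1 or nonspecific replicate 1, PRRX1 alone passed of these 7, and the others had adjusted p up to 0.333 in edgeR's test.

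Adhesion and matrix genes held some of the highest changes. Of 24 adhesion genes, all tested, 5 rose and 2 fell. VCAM1, a surface ligand of integrins, had 16.8 and 33.2 CPM with siRNA 2, against 3.52 and 5.09 CPM with nonspecific siRNA (2.53, SE 0.37, adjusted p of 0.00744 by edgeR's quasi-likelihood test). CADM1, an immunoglobulin-type adhesion protein, had 118 and 78.1 CPM, against 27.6 and 29.6 CPM (1.77, SE 0.20). The groups stood far apart in both, although the siRNA 2 libraries differed between themselves. CNTN1, PCDH9 and the integrin ITGA9 rose by 1.17, 1.10 and 0.87 on the log2 scale, while the laminin receptor ITGA6 had 144 and 160 CPM, against 247 and 249 CPM, and L1CAM had 56.5 and 74.5 CPM, against 104 and 95.0 CPM. Of 25 collagens and matrix proteins, 4 rose and 3 fell. COL14A1, a collagen that sits on fibrils, had 564 and 405 CPM, against 156 and 137 CPM (1.72, SE 0.22), the fibrillin FBN2 had 1102 and 887 CPM, against 471 and 483 CPM, and KAL1, the matrix protein anosmin, had 95.6 and 61.2 CPM, against 20.3 and 20.2 CPM. The fallen ones were the basement membrane chain COL4A2 (-0.49), COL8A1 (-0.53) and COL1A1 (-0.40). CADM1, COL14A1, FBN2 and KAL1 passed without each library in turn. Without siRNA 2 replicate 1 there were 2 adhesion and 3 matrix genes higher and none lower, and without nonspecific replicate 1 there were 1 higher and 1 lower adhesion gene and 3 higher matrix genes, VCAM1 among those lost there.

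Among 21 matrix proteases and inhibitors, 1 rose and 2 fell. The aggrecan-cleaving protease gene ADAMTS9 had 17.9 and 14.7 CPM with siRNA 2, against 3.35 and 4.52 CPM with nonspecific siRNA (2.05, SE 0.22, adjusted p of 0.00176 by edgeR's quasi-likelihood test), and passed without each library. TIMP1, an inhibitor of matrix metalloproteases, had 94.4 and 109 CPM, against 155 and 135 CPM, and SERPINA3 had 5.52 and 12.6 CPM, against 27.5 and 29.4 CPM. The fall of these inhibitors was not called without siRNA 2 replicate 1 or nonspecific replicate 1 (adjusted p up to 0.311 in edgeR's test).

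Some genes of secreted signals and their receptors were called, in both directions. Of 28 TGF-beta and BMP genes, all tested, 6 rose and 1 fell, with a median log2 fold change of 0.17. Over all genes tested, 2.59% were higher and 3.84% lower. The ligands TGFB2, TGFB3 and BMP4 rose by 1.17, 1.26 and 0.87 on the log2 scale, and TGFB2 had 141 and 102 CPM with siRNA 2, against 56.0 and 52.1 CPM with nonspecific siRNA (SE 0.17, adjusted p of 0.00648 by edgeR's quasi-likelihood test). The inhibitory SMAD6 and the BMP-responsive ID3 rose too, and ID3 had 69.3 and 77.0 CPM, against 48.4 and 51.7 CPM. FST, which encodes the activin antagonist follistatin, fell to 9.74 and 11.9 CPM, against 21.3 and 32.5 CPM. The members that moved thus held ligands and inhibitors alike. None of the 7 passed without siRNA 2 replicate 1 (adjusted p of 0.0611 to 0.273 for the 5 leading genes in edgeR's test), and 2 did without nonspecific replicate 1.

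Of 26 tested WNT genes, 2 rose and 2 fell. Over all genes tested, 2.59% were higher and 3.84% lower, and nothing is read from the counts in this paragraph about pathways. LGR4, a receptor for R-spondins, had 152 and 131 CPM with siRNA 2, against 53.3 and 63.3 CPM with nonspecific siRNA (1.28, SE 0.11, adjusted p of 0.000766 by edgeR's quasi-likelihood test). The WNT antagonist DKK2 had 7.71 and 5.05 CPM, against 0.910 and 1.57 CPM, and the scaffold AXIN1 and the receptor FZD1 were lower by small amounts (-0.55 and -0.38). Of 21 tested semaphorins and their receptors, 4 rose and 2 fell: SEMA3D had 20.5 and 10.8 CPM, against 4.01 and 4.67 CPM, SEMA3C had 276 and 221 CPM, against 125 and 135 CPM, and SEMA7A, which is anchored to the membrane, had 15.6 and 25.0 CPM, against 34.8 and 42.7 CPM. The receptors PLXNA2 and PLXNC1 rose and PLXNA1 fell. Of 19 tested NOTCH genes, RBPJ, the DNA-binding partner of NOTCH, rose to 62.6 and 57.7 CPM, against 29.0 and 36.6 CPM. It also differed between nonspecific siRNA and DMSO (adjusted p of 0.0270 in the same test). HEYL rose and NOTCH1 fell. Of 23 YAP targets 1 rose, TGFB2 again, and 2 fell, among them CYR61, a matricellular protein, with 131 and 205 CPM, against 409 and 378 CPM. LGR4 passed without each library. LGR4 and SEMA3D were the ones of these 4 lists that passed without siRNA 2 replicate 1, without nonspecific replicate 1 no semaphorin gene did, and the others ran up to an adjusted p of 0.357 in edgeR's test.

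**Figure D3:**
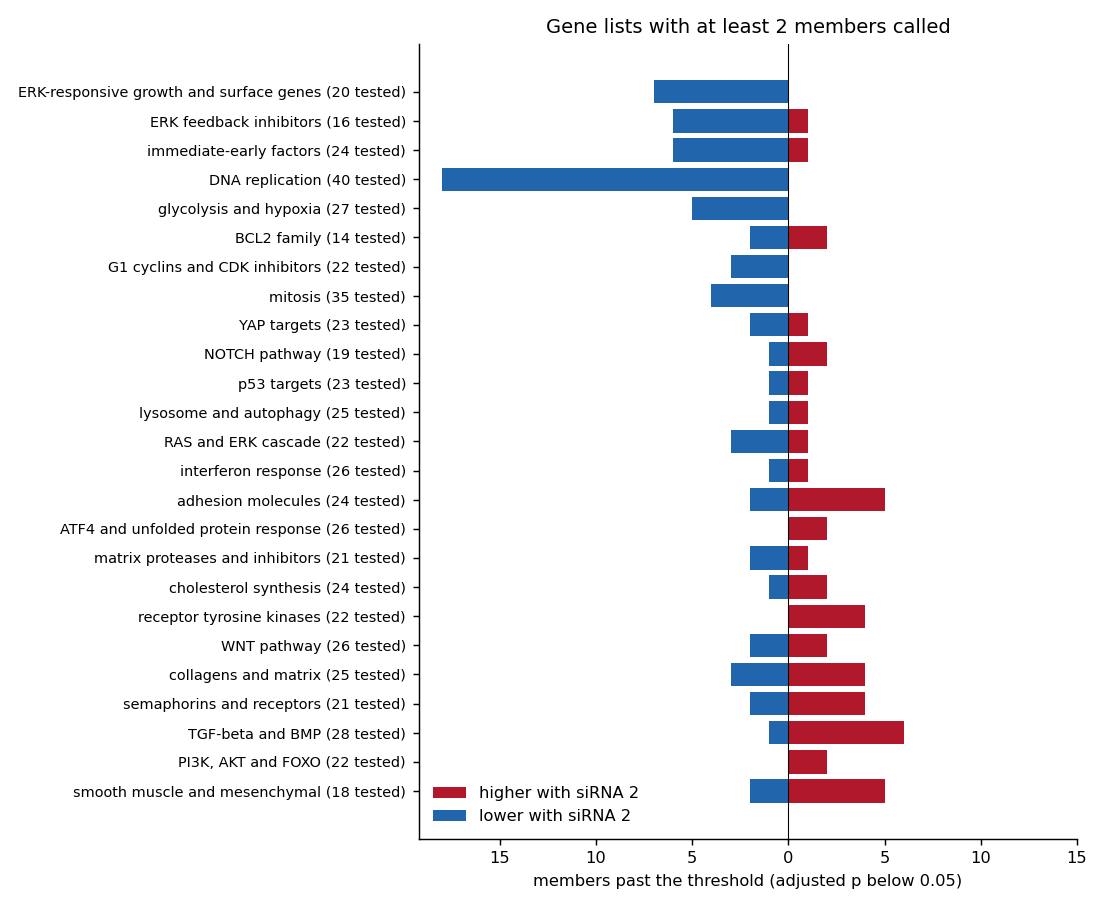
Number of members of each gene list past the threshold (horizontal axis), higher with siRNA 2 to the right and lower to the left, for the lists with at least 2 members called, with the number tested in parentheses. DNA replication holds 18 lower members of 40, and TGF-beta and BMP genes hold 6 higher members of 28.

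Of 27 tested genes of glycolysis and the hypoxia response, 5 fell and none rose, with a median log2 fold change of -0.25. The phosphofructokinase PFKP, which controls entry into glycolysis, had 57.2 and 82.9 CPM with siRNA 2, against 147 and 157 CPM with nonspecific siRNA (-1.12, SE 0.19, adjusted p of 0.013 by edgeR's quasi-likelihood test), and LDHA, which makes lactate, had 595 and 627 CPM, against 906 and 838 CPM. HK2, ALDOA and the vasoactive peptide ADM were the others. Without siRNA 2 replicate 1 or nonspecific replicate 1 none of the 5 passed (adjusted p of 0.0569 to 0.365 in edgeR's test). Genes of ribosome biogenesis, which MYC drives, had 1 lower member of 30, MYBBP1A, and a median log2 fold change of -0.39, with all 30 values negative. MYBBP1A had 58.3 and 80.0 CPM, against 111 and 126 CPM, and it was not called without siRNA 2 replicate 1, nonspecific replicate 1 or nonspecific replicate 2 (adjusted p of 0.248, 0.0745 and 0.0785 in the same test). The count for these 30 genes depended on the setting: 10 were lower with no filter on low counts, 9 with DESeq2, 20 with the replicate block and 4 without siRNA 2 replicate 2, and none with only the 4 libraries compared in the fit.

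Of 24 genes of cholesterol synthesis and uptake, 2 rose and 1 fell, and of 26 genes of the ATF4 and unfolded protein responses 2 rose. Over all genes tested, 2.59% were higher and 3.84% lower, and nothing is read from the counts in this paragraph about pathways. HMGCS1 of the synthesis pathway had 168 and 145 CPM with siRNA 2, against 117 and 112 CPM with nonspecific siRNA, and it and the unfolded protein response genes HERPUD1 and PDIA4 rose by 0.45, 0.63 and 0.35 on the log2 scale. Of 26 tested interferon genes, which a transfected double-stranded RNA can induce, 1 rose and 1 fell: IFI44L had 11.6 and 7.97 CPM, against 3.97 and 3.18 CPM, and ISG15 had 40.5 and 46.1 CPM, against 88.9 and 68.2 CPM. Of 23 tested p53 targets TP53INP1 rose (0.89) and PLK3 fell (-0.74), and of 25 lysosome and autophagy genes 1 rose and 1 fell, and the gene that fell was LAMP1 (-0.50), which encodes a lysosomal membrane protein. None of the 21 NF-kB and cytokine genes, 26 oxidative phosphorylation genes or 15 genes of the RNA interference machinery passed edgeR's test, while 2, 5 and 6 of them had an unadjusted p below 0.05 and DESeq2 called 0, 0 and 4. None of the genes named in this paragraph passed without siRNA 2 replicate 1 (adjusted p of 0.131 to 0.39 in edgeR's test) or without nonspecific replicate 1 (0.0647 to 0.191).

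The highest and lowest genes outside these lists included enzymes, guidance receptors and transporters. PDE5A, which breaks down cyclic GMP, had 106 and 51.0 CPM with siRNA 2, against 18.3 and 11.1 CPM with nonspecific siRNA (2.43, SE 0.45, adjusted p of 0.0172 by edgeR's quasi-likelihood test). ENPP2, the enzyme autotaxin that makes lysophosphatidic acid, had 20.0 and 13.1 CPM, against 4.22 and 2.83 CPM, and the axon guidance receptor ROBO2 had 50.4 and 29.2 CPM, against 11.7 and 7.31 CPM. The siRNA 2 replicate 1 value was the higher in all 3 and none of them passed without it, with adjusted p up to 0.158 in edgeR's test, while PDE5A also did not pass without either nonspecific library and ROBO2 without nonspecific replicate 2. CD24, a surface glycoprotein with further copies in the genome that make its counts less certain, had 23.1 and 17.4 CPM, against 5.30 and 4.52 CPM, and passed without each library. On the lower side, WNT7B had 1.05 and 3.49 CPM, against 7.41 and 13.6 CPM, and its adjusted p was 0.0486. The transporter SLCO4A1 had 6.15 and 15.7 CPM, against 30.99 and 33.4 CPM, SIGLEC15 had 1.68 and 3.56 CPM, against 8.85 and 7.46 CPM, and C3orf52 had 7.04 and 11.2 CPM, against 22.96 and 24.9 CPM. None of these 4 lower genes passed without siRNA 2 replicate 1 (adjusted p up to 0.353 in edgeR's test), and C3orf52 alone passed without nonspecific replicate 1.

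A core of 46 genes, 24 higher and 22 lower, passed in each of the 4 fits that left out a library and under each of the other 7 alternatives. As they were picked for this, their values are a description. The higher ones held extracellular and surface genes described above (ADAMTS9, CADM1, CD24, COL14A1, FBN2, KAL1, LGR4, MET, ROR1) and others: the laminin chain LAMA4, with 179 and 150 CPM with siRNA 2, against 59.2 and 49.3 CPM with nonspecific siRNA, the large cadherin FAT4, with 285 and 203 CPM, against 70.5 and 83.7 CPM, and PTCH1, the Hedgehog receptor and itself a target of that pathway, with 593 and 513 CPM, against 254 and 258 CPM. DNMT3B, a DNA methyltransferase, had 48.9 and 49.5 CPM, against 20.8 and 18.1 CPM, and MSRB3, which repairs oxidised methionine, had 71.7 and 64.0 CPM, against 28.1 and 30.7 CPM. The remaining higher ones were C14orf132, CALU, LZTFL1, MOXD1, PDCD6, PRRX1, PTPMT1, SMAP1, TAPT1 and TOMM20. Beside NRAS and CDKN2B, the lower ones held the phosphatase PTPRE, with 8.56 and 9.79 CPM, against 20.9 and 22.2 CPM, the syntrophin SNTB1, with 37.6 and 43.3 CPM, against 85.7 and 84.5 CPM, the serotonin receptor HTR2B, with 9.39 and 9.75 CPM, against 24.7 and 24.7 CPM, SRPX, with 119 and 130 CPM, against 217 and 213 CPM, and MPP4. The other 15 lower ones also differed from siRNA 1.

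**Figure D4:**
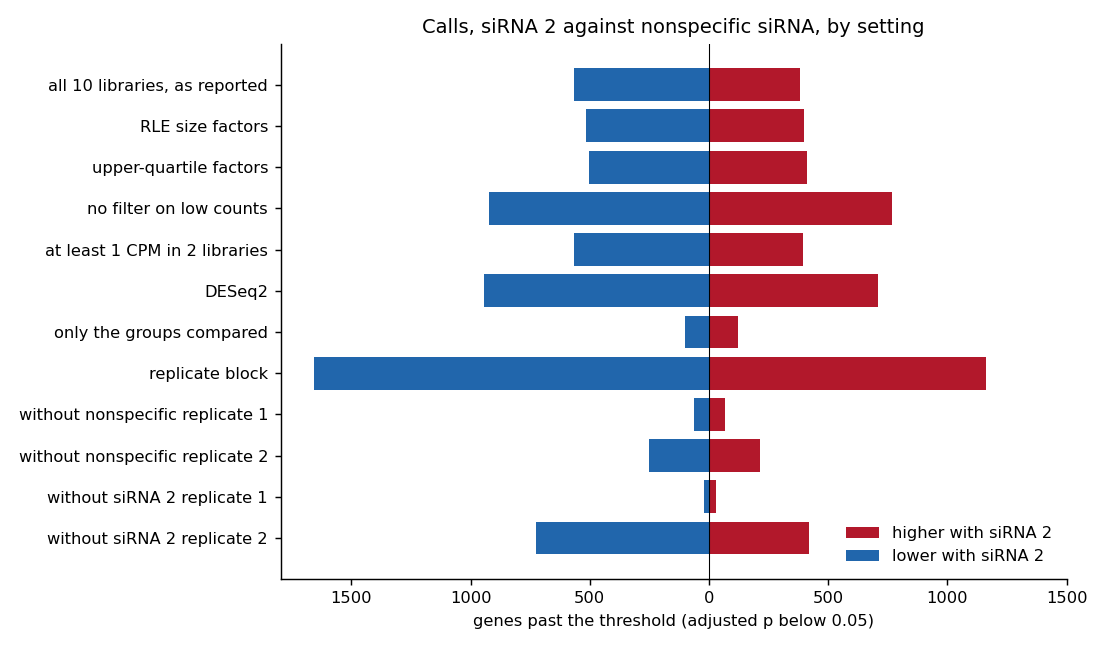
Number of genes past the threshold (horizontal axis), higher with siRNA 2 to the right and lower to the left, as reported and under each alternative. The reported counts are 382 and 567, and the fewest, 31 higher and 22 lower, came without siRNA 2 replicate 1.

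Whether the response to siRNA 2 differed from that to siRNA 1 was tested directly between their libraries, since both target NRAS and share the nonspecific libraries as control. Of the 14761 genes, 63 differed (0.427%), 29 higher and 34 lower with siRNA 2, 12 of them by at least 2-fold, and 881 had an unadjusted p below 0.05. Against nonspecific siRNA, siRNA 1 gave 132 higher and 173 lower genes (2.07% called). Of the 949 genes called for siRNA 2, 912 did not differ from siRNA 1 in this test, which does not show that they responded alike. The other 37 lay mostly on the lower side: 34 of the 567 lower genes (6%) and 3 of the 382 higher ones (0.785%) were also called in the direct test, 1 of the 34 in the opposite direction. Of the core genes, 15 of the 22 lower and none of the 24 higher were called there. Both tests use the same siRNA 2 libraries, so these counts are not independent of each other. The direct calls numbered 18 without siRNA 1 replicate 1, 6 without siRNA 1 replicate 2, 6 without siRNA 2 replicate 1 and 8 without siRNA 2 replicate 2.

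The genes of the ERK lists gave values side by side for the siRNAs. DUSP6 had 101 and 108 CPM with siRNA 2, against 96.6 and 99.8 CPM with siRNA 1. SPRY4 had 107 and 126 CPM with siRNA 2, against 114 and 126 CPM with siRNA 1, and EGR1 had 20.4 and 19.1 CPM, against 17.9 and 16.6 CPM. In the direct test their log2 differences were 0.09 (SE 0.16), -0.05 (SE 0.15) and 0.20 (SE 0.27), with adjusted p of 0.970, 0.979 and 0.959 by edgeR's quasi-likelihood test. Members of these 3 lists that the direct test called were KLF2 and HMGA2, both higher with siRNA 2. HMGA2, a relative of HMGA1 and an oncofetal chromatin protein, had 1250 and 1191 CPM with siRNA 2 and 678 and 660 CPM with siRNA 1, against 1153 and 1155 CPM with nonspecific siRNA. It fell with siRNA 1 (adjusted p of 0.00571 in the same test), while siRNA 2 stood above nonspecific siRNA by 0.08 on the log2 scale with an adjusted p of 0.641. ATP6V1A, of the lysosome list, was called too: it encodes a subunit of the lysosomal proton pump and had 140 and 122 CPM with siRNA 2 and 82.9 and 80.4 CPM with siRNA 1, against 107 and 110 CPM. The direct call of KLF2, HMGA2 and ATP6V1A was lost without any 1 of the 4 siRNA libraries. No DNA replication gene was called in the direct test by edgeR, while 10 had an unadjusted p below 0.05 and DESeq2 called 0, and the median log2 difference of the 40 genes was -0.24.

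Genes lower with siRNA 2 than with siRNA 1 held regulators of the cell cycle, enzymes and membrane proteins. CDCA4, a regulator of E2F activity, had 30.5 and 35.4 CPM with siRNA 2 and 90.2 and 99.2 CPM with siRNA 1, against 125 and 115 CPM with nonspecific siRNA (log2 difference from siRNA 1 -1.52, SE 0.11, adjusted p of 0.000444 by edgeR's quasi-likelihood test). BTG3, an antiproliferative protein, had 16.2 and 20.3 CPM with siRNA 2 and 44.8 and 54.6 CPM with siRNA 1, against 57.7 and 67.9 CPM. DDAH1, which degrades an inhibitor of nitric oxide synthesis, had 81.1 and 95.9 CPM with siRNA 2 and 177 and 222 CPM with siRNA 1, against 256 and 277 CPM. In all 3 genes siRNA 2 stood below both other groups without overlap. TMEM106C had 55.9 and 57.4 CPM with siRNA 2 and 149 and 132 CPM with siRNA 1, against 132 and 116 CPM, and the MYC-associated CDCA7L had 35.8 and 34.9 CPM with siRNA 2 and 78.5 and 81.6 CPM with siRNA 1, against 72.6 and 72.3 CPM. TMEM55A, a lipid phosphatase gene, the aminopeptidase METAP2 and the arginine methyltransferase PRMT6 had log2 differences of -1.33, -1.003 and -0.99. Further genes of this kind included the base excision glycosylase TDG, the DNA end-binding subunit XRCC6 and the small GTPase RHOA, with 472 and 504 CPM with siRNA 2 and 734 and 740 CPM with siRNA 1, against 815 and 742 CPM.

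Of the 8 genes furthest above siRNA 1, 6 had fallen with siRNA 1 against nonspecific siRNA. C9orf6 had 57.7 and 55.5 CPM with siRNA 2 and 9.46 and 10.8 CPM with siRNA 1, against 44.8 and 56.0 CPM with nonspecific siRNA (log2 difference 2.48, SE 0.13, adjusted p of 4.85e-05 by edgeR's quasi-likelihood test). SLMO2, ICK, SH3BGRL2 and NGLY1 followed the same order, with log2 differences of 1.21, 0.98, 0.99 and 0.96, and siRNA 2 did not differ from nonspecific siRNA in any of these 5 by the same test. KLF2 was the reverse case: it rose to 14.2 and 19.0 CPM with siRNA 2 and had 5.94 and 6.74 CPM with siRNA 1, against 6.37 and 7.62 CPM. DOK4, an adaptor of receptor kinases, had 148 and 154 CPM with siRNA 2 and 67.7 and 58.3 CPM with siRNA 1, against 102 and 87.5 CPM, so that it rose with the one and fell with the other. CPS1, the first enzyme of the urea cycle, had a log2 difference of 1.15. Of the 63 genes, 5 passed without each library in turn and under each other alternative: CDCA4, CDCA7L and TMEM106C lower, and C9orf6 and DOK4 higher. Of the 18 genes named from the direct test, 7 lost the call without siRNA 1 replicate 1, 12 without siRNA 1 replicate 2, 12 without siRNA 2 replicate 1 and 10 without siRNA 2 replicate 2.

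**Figure D5:**
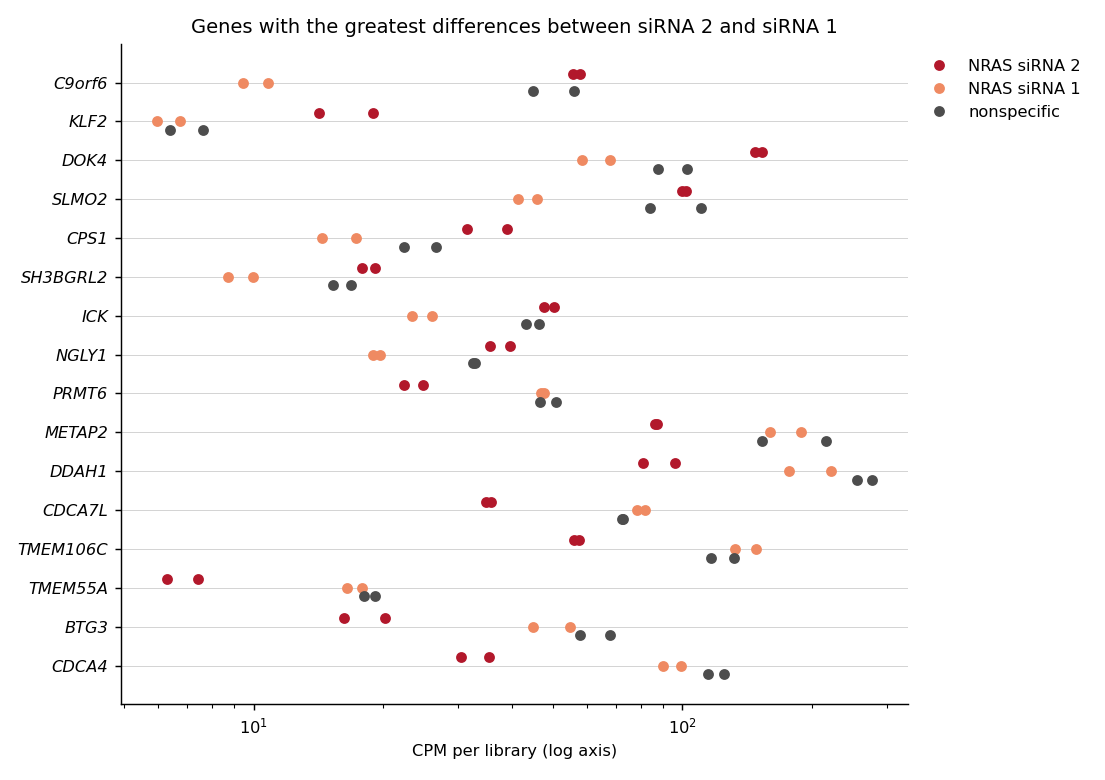
CPM per library (horizontal log axis) of the 8 highest and 8 lowest genes by difference between siRNA 2 and siRNA 1, with 1 point per library. C9orf6 lies at 57.7 and 55.5 CPM with siRNA 2, against 9.46 and 10.8 CPM with siRNA 1, and CDCA4 at 30.5 and 35.4 CPM, against 90.2 and 99.2 CPM.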

How the data were processed

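Total RNA of RD cells was made into stranded mRNA libraries, per the labels' protocols. The authors deposited whole-number read counts per gene with no normalisation. TopHat2, HTSeq, SAMtools and bcl2fastq are named in the submitters' processing notes, with builds GRCh37 and hg19. What versions, annotation and strand setting they used is not given in the sources used here. Overlapping and antisense genes cannot be told apart. Reads in the 5 category lines of the counting stayed out of library sizes and tests. In the 4 libraries, 10.2% to 11.2% were without a gene and 27.3% to 28.0% not unique, as a percent of gene plus category counts. Counts of all 10 libraries were fitted together with edgeR 4.0.16 in R 4.3.3 (TMM scaling, filterByExpr with a minimum count of 10, quasi-likelihood test, Benjamini-Hochberg adjustment over all genes tested, threshold 0.05), and log2 fold changes are siRNA 2 over the other group. CPM values are on TMM-scaled library sizes. The step was also run on data simulated with a common spread for all genes and no replicate effect. That run does not show how far the calls here hold. Genes were named by rule: by name, the 12 highest and 12 lowest with at least 5 CPM and no overlap, up to 5 members per list, and the 8 highest and 8 lowest against siRNA 1. Genes quoted with values beyond these, mostly further list members and the core of 46, were chosen after their values were seen. A lack of overlap between groups in a called gene follows largely from such choices and is a description. The members and the 35 gene lists were chosen with earlier results of these data known. Alternatives were other scaling, filters, DESeq2 1.42.0, only the groups compared, a replicate block and leaving out each library. Some list members are not reported here.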

Additional observations from a re-analysis of the deposited data

Results flagged for a closer look

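The response to siRNA 2 and that to siRNA 1 differed in the direct test between their libraries for the 16 genes named by size of difference. On the log2 scale, siRNA 2 minus siRNA 1, the lower ones were CDCA4 (-1.52), BTG3 (-1.45), TMEM55A (-1.33), TMEM106C (-1.31), CDCA7L (-1.18), DDAH1 (-1.18), METAP2 (-1.003) and PRMT6 (-0.99). The higher ones were C9orf6 (2.48), KLF2 (1.38), DOK4 (1.26), SLMO2 (1.21), CPS1 (1.15), SH3BGRL2 (0.99), ICK (0.98) and NGLY1 (0.96). Each had 2 libraries per siRNA that did not overlap. They were picked as the largest called differences between these same libraries, so the lack of overlap is a description and no support. Why they differ was not tested.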

How the results depend on the processing

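NRAS kept its direction and passed under each of the 11 alternatives, with log2 fold changes from -2.44 to -2.15. The counts moved. For siRNA 2 against nonspecific siRNA, the reported 382 higher and 567 lower genes became 768 and 922 with no filter on low counts, 709 and 942 with DESeq2, and 123 and 102 with only the 4 libraries compared in the fit, and they ran from 31 to 418 higher and from 22 to 726 lower when each library was left out. For siRNA 2 against siRNA 1, the reported 29 higher and 34 lower became 47 higher with no filter, 63 and 81 with DESeq2, and 9 and 19 with only those 4 libraries, and they ran from 2 to 5 higher and from 3 to 13 lower when each library was left out. With only the groups compared, 54.7% of the calls against nonspecific siRNA were higher, against 40.2% as reported. With the replicate block the counts were 1160 and 1655, and 55 and 65. The labels share the numbers 1 and 2 without saying that a number marks a shared batch, and same-numbered libraries deviated together with a correlation of 0.227 for siRNA 2 and nonspecific siRNA, 0.427 for siRNA 2 and siRNA 1, and 0.0737 to 0.448 over all 10 pairs of groups, so the block is a hint from the data and not from the design. The cause of these moves was not tested, beyond the fewer samples in the smaller fits. No named gene that was called reversed its direction in any alternative, while DES, which was not called, had a log2 fold change of 0.14 as reported, which ran from -0.10 (without nonspecific replicate 2) to 0.44 when each library was left out. Of 110 named genes called, 92 lost the call without siRNA 2 replicate 1 and 83 without nonspecific replicate 1. HRAS and CCND1, not called as reported, were called lower with no filter, DESeq2, the replicate block and without siRNA 2 replicate 2. At this depth a gene with no read in a library could still have had 0.0951 to 0.124 CPM there.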

Other observations

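Further called genes, chosen after their values were seen, fall outside the lists. The axon guidance receptor gene ROBO1 had 287 and 230 CPM with siRNA 2, against 108 and 105 CPM with nonspecific siRNA, and its ligand SLIT2 had 133 and 92.2 CPM, against 54.7 and 37.8 CPM, with log2 fold changes of 1.28 for both and adjusted p of 0.00518 and 0.0208 by edgeR's quasi-likelihood test. RSPO3, a ligand of the LGR4 receptor, had 45.3 and 26.7 CPM, against 14.6 and 10.9 CPM. PDE3A, a cyclic nucleotide phosphodiesterase, had 10.7 and 7.08 CPM, against 2.94 and 2.53 CPM.

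RGS16, a regulator of G protein signalling, had 11.2 and 11.4 CPM with siRNA 2, against 28.6 and 21.2 CPM with nonspecific siRNA, and its relative RGS17 had 11.8 and 12.7 CPM, against 20.3 and 23.2 CPM. The fatty acid synthase gene FASN had 446 and 579 CPM, against 1142 and 904 CPM, and ASS1, which makes a precursor of arginine, had 47.2 and 37.1 CPM, against 113 and 67.6 CPM. None of the 8 genes given here with values is among the 46 that passed under every alternative, so each lost its call in at least 1 of them.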
